A study of Mus musculus with 3 samples.

Results

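The bitter taste receptor family was followed in the proximal jejunum of mice lacking Sox4 in the intestinal epithelium. Members were all genes whose symbol in the array annotation begins with Tas2r and a digit, and 35 of the 20738 named genes met this rule. They were represented by 37 array features, 1 for each gene except Tas2r130 and Tas2r136, which had 2 each. All 35 genes had a ratio on every array. The rule used names and no measured value.

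Total RNA of whole proximal jejunum was hybridised to 3 two-colour Agilent arrays, with RNA of a Sox4 knockout mouse made with vilCre in Cy5 and wild-type RNA in Cy3. VilCre is a Cre recombinase driven by the villin promoter, which is active in the epithelium and not in the muscle, nerve and immune cells of the wall. The labels name a different knockout mouse for each array. They do not give the age, sex or strain of the mice, nor whether the wild-type RNA was pooled. Each value is the log2 of knockout over wild-type signal, as mean ± SD over n = 3 arrays, so a value of 1 is a doubling if the deposited logarithm is to base 2, as assumed here. The direction follows the dyes in the labels, and every sign would turn if the deposited ratios were Cy3 over Cy5. Ratios carry no expression level, so whether a receptor was above background in this tissue could not be read from them, and the jejunal identity of the RNA could not be checked by level. Less RNA per cell and fewer cells of a type cannot be told apart in whole tissue.

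Bitter taste receptors are G protein-coupled receptors of the Tas2r family, each encoded in mice by a coding sequence without introns. On taste cells they bind bitter compounds and signal through the G protein alpha-gustducin, phospholipase C beta-2 and the inositol trisphosphate receptor, whose calcium signal opens the cation channel Trpm5. The same cascade is present in tuft cells, the chemosensory cells of the gut and airway epithelium, and bitter receptors have been described in tuft and enteroendocrine cells of the intestine.

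The targeted gene was a weak check of the labels. Sox4 had ratios of -0.66, 0.18 and -0.46 on arrays 1, 2 and 3, and limma's adjusted p was 0.332, so the mean of its 3 features was above 0 in the array 2 library labelled Sox4 knockout. Its features disagreed, with -1.21, -0.72 and -0.93 for the lowest, -0.82, 0.03 and -0.43 for the next, and 0.06, 1.23 and -0.02 for the highest. Where they lie relative to the deleted part is not known here, so Sox4 tests the labels only in part. Sex-linked genes also moved with genotype, with the Y-linked Eif2s3y at -7.28 ± 0.25 and the X-inactivation RNA Xist at 1.71 ± 0.18, so sex and genotype cannot be told apart in any value below.

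A single receptor, Tas2r143, passed the threshold. Arrays 1, 2 and 3 gave ratios of 1.19, 0.98 and 1.17, a mean of 1.11 ± 0.12 or 2.16-fold higher in the knockout (95% interval 0.82 to 1.40, limma adjusted p = 0.0462 over all genes). The 3 arrays lay close together and all well above 0. Over all genes 0.106% were called higher and 0.222% lower, 0.328% in all, and no other bitter receptor was called in either direction. Tas2r143 was not called with any one array left out (mean 1.07, adjusted p = 0.237 without array 1, 1.18 and 0.0675 without array 2, 1.09 and 0.209 without array 3), nor after quantile normalization (1.12 and 0.0505).

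Tas2r108 had the highest mean of the family and did not pass. Its ratios were 0.56, 1.33 and 1.89, a mean of 1.26 ± 0.67 (2.40-fold, 95% interval 0.62 to 1.90, adjusted p = 0.0773). All 3 arrays were above 0, but array 3 was far above array 1, and the SD was larger than that of 95.3% of all genes. Tas2r108 is the mouse counterpart of human TAS2R4, a receptor for denatonium among other compounds. Tas2r118, the counterpart of human TAS2R16, which responds to salicin and related glucosides, was much more even. It had 0.52, 0.61 and 0.78 (0.64 ± 0.13, 1.56-fold, adjusted p = 0.0705).

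Further high means were those of Tas2r123, Tas2r102 and Tas2r103, none of them past the threshold. Tas2r123 had 0.46, 0.35 and 1.26 (0.69 ± 0.50, adjusted p = 0.121), with array 3 standing above the others. Tas2r102 had 0.34, 0.82 and 0.66 (0.61 ± 0.24, adjusted p = 0.0853), and Tas2r103 had 0.77, 0.53 and 0.23 (0.51 ± 0.27, adjusted p = 0.112). Both were above 0 on every array. Tas2r140 was lower in size and even, with 0.39, 0.20 and 0.45 (0.35 ± 0.13, adjusted p = 0.146).

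At the other end, no bitter receptor was called lower. Tas2r129 had the lowest mean, and it rested on array 2, with -0.28, -1.65 and 0.04 (-0.63 ± 0.89, adjusted p = 0.279). Tas2r104 was the most even of the low genes, at -0.40, -0.49 and -0.54 (-0.48 ± 0.07, 1.39-fold lower, adjusted p = 0.088). Tas2r139 was also below 0 on every array, with -0.43, -0.22 and -0.49 (-0.38 ± 0.14, adjusted p = 0.132). Tas2r124 (-0.39, -0.82 and 0.11) and Tas2r107 (-0.32, 0.31 and -0.84) changed sign between arrays.

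Several of the best-studied receptors had means near 0 or uneven ratios. Tas2r105, which responds to cycloheximide, had 0.31, 0.00 and 0.22 (0.18 ± 0.16, 95% interval -0.13 to 0.48). Tas2r138, the counterpart of the human phenylthiocarbamide receptor TAS2R38, had 1.30, -0.15 and -0.18, so its mean of 0.32 ± 0.84 came from array 1 and was -0.16 without it. Tas2r138, Tas2r129 and Tas2r108 had the 3 largest SDs of the family. The 17 receptors outside the rule for naming had means from -0.28 (Tas2r121) to 0.34 (Tas2r120), 10 above 0 and 7 below, and 5 of them kept 1 sign on all arrays. Their smallest adjusted p in limma's test was 0.212.

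**Figure D1:**
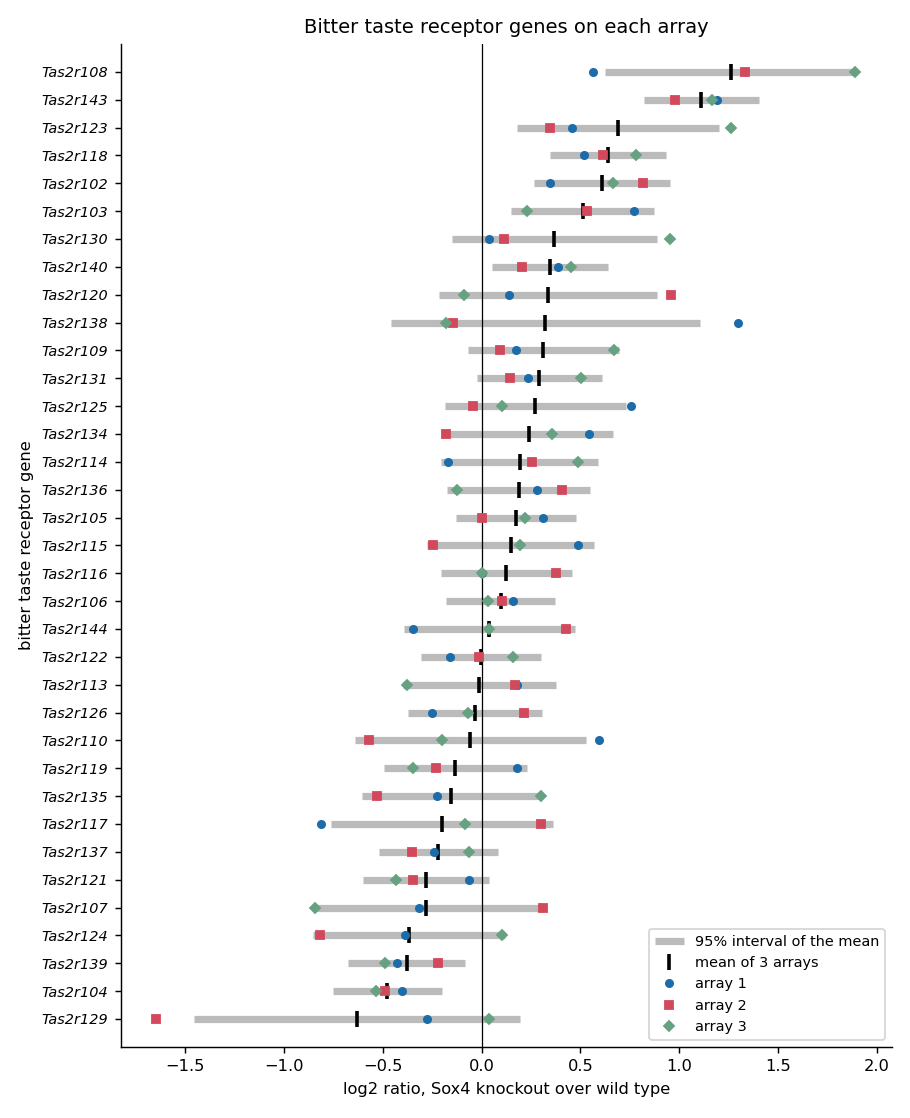
Log2 ratio of knockout over wild type (horizontal axis) of each bitter taste receptor gene, ordered by mean. Points are the 3 arrays, black ticks the means and grey bars the 95% intervals; the intervals of Tas2r108, Tas2r143, Tas2r118, Tas2r102, Tas2r103, Tas2r123 and Tas2r140 lie above 0 and those of Tas2r104 and Tas2r139 below it.

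The family as a whole was spread around a median of 0.15, where the median of all genes was -0.03. Without array 1 or array 2 the receptor median was 0.09. Of the 35 receptors 21 had a mean above 0 and 14 below, where 46.4% of all genes had a mean above 0. An unadjusted p under 0.05 was found for 7 receptors on the higher side and 2 on the lower. Over all genes 12% had such a p on the higher side and 14.3% on the lower, 26.3% in all, so the 9 of 35 receptors (25.7%) were close to the share of all genes. Ratios were above 0 on every array for 11 receptors and below 0 on every array for 4. The same shares over all genes were 23.2% and 27.3%, and 50.6% of all genes kept 1 sign against 42.9% of the receptors. The SD over arrays had a median of 0.31 for the receptors, 0.29 for Olfr, 0.31 for Vmn1r, 0.26 for Vmn2r, 0.36 for Taar and 0.22 for all genes, of which 6171 average several features.

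Other large families of chemosensory receptors also had medians above 0. The median was 0.11 over 1085 olfactory receptor genes (Olfr), 0.17 over 163 and 0.12 over 89 vomeronasal receptor genes (Vmn1r and Vmn2r), and 0.10 over 14 trace amine receptor genes (Taar). Of the Olfr genes 63.4% had a mean above 0, of Vmn1r 73.0% and of Vmn2r 68.5%, beside 60% of the bitter receptors. Most members of each family thus lay on the same side as most bitter receptors. In limma's test an unadjusted p under 0.05 was found for 232 Olfr genes on the higher side and 45 on the lower. For Vmn1r these counts were 34 and 8. Means past 1 in size were found for 2 of the 35 bitter receptors (5.71%), 12 Olfr genes (1.11%), 1 Vmn1r gene (0.613%), 2 Vmn2r genes (2.25%), 1 Taar gene (7.14%) and 1.72% of all genes.

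Arrays agreed on the receptors only in part. Over the 35 genes, which share the same 3 RNA pairs and arrays, Pearson's r was 0.33 between arrays 1 and 2, 0.42 between 1 and 3 and 0.48 between 2 and 3. Spearman's rho was 0.28, 0.43 and 0.38. Over all genes r was 0.43, 0.57 and 0.41.

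Features of the same gene did not always agree. For Tas2r136, 1 feature had -0.60, -0.15 and -0.51 and the other 1.16, 0.97 and 0.26, a mean difference of 1.21 ± 0.50. They lay on opposite sides of 0 on every array, and the gene's mean of 0.19 ± 0.28 described neither of them. For Tas2r130 the features had 0.11, -0.14 and 0.89 and, for the other, -0.04, 0.37 and 1.02, so both were highest on array 3 (mean difference 0.16 ± 0.33). The remaining 33 receptors, Tas2r143 and Tas2r108 included, rested on a single feature and had no such check.

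Some ratios were listed as exactly 0. This was the case for Tas2r105 on array 2 and for Tas2r116 on arrays 1 and 3, that is 2 of 37 features (5.41%), beside 3.22% of all features and 8.66% of Olfr features. On arrays 1, 2 and 3 there were 870, 969 and 647 features at exactly 0. Another 621, 568 and 610 lay within 0.005 of 0 without being 0, although that range holds several listed steps on either side, so exact zeros were far more frequent than their neighbours. What the zeros stand for is not given in the sources used here. Leaving such features out removed Tas2r105 and Tas2r116 and kept Tas2r143 as the only receptor called.

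Most mouse bitter receptor genes lie in clusters. In the RefSeq gene order of assembly GRCm38.p6, taken as runs with at most 10 other genes between neighbours, the members formed 4 runs of 3, 5, 6 and 18 genes and 3 single genes, Tas2r118, Tas2r119 and Tas2r134. Neighbours did not share a direction. The run of 18, from Tas2r120 to Tas2r140, had means from -0.63 to 0.69 with a median of 0.17, and the run of 6, from Tas2r130 to Tas2r114, had means from -0.48 to 0.37. The highest means of the family, Tas2r108 and Tas2r143, lay in the shorter runs.

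Tas2r143 lies beside Tas2r135 and Tas2r126, a trio described as expressed together in chemosensory cells of the airway. Its neighbours had no such ratio. Tas2r135 had -0.23, -0.53 and 0.30 (-0.15 ± 0.42, 95% interval -0.61 to 0.30) and Tas2r126 had -0.25, 0.22 and -0.07 (-0.03 ± 0.23, 95% interval -0.37 to 0.30). On every array both lay below Tas2r143, a difference seen in the values and not tested. Likewise Tas2r137, next to Tas2r108, was below 0 on every array (-0.22 ± 0.15). The first 50 coding bases of these 5 neighbours are shown to compare the genes at their start only. They are a small part of the receptor gene models, whose median length was 936 bases. They were read from RefSeq on GRCm38.p6, all on the plus strand, with the start codon in capitals, at chr6:42400238-42400287 (Tas2r143), chr6:42405529-42405578 (Tas2r135), chr6:42434535-42434584 (Tas2r126), chr6:40493592-40493641 (Tas2r108) and chr6:40491238-40491287 (Tas2r137).
Tas2r143: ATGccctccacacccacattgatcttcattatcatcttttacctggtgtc
Tas2r135: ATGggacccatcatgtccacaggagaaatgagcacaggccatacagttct
Tas2r126: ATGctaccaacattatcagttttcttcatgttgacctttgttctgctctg
Tas2r108: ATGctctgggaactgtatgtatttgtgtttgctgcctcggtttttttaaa
Tas2r137: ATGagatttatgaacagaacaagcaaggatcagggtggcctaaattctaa

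Aligned from the start codon without gaps, Tas2r143 shared 29 of these 50 bases with Tas2r126 and 15 with Tas2r135, and Tas2r108 shared 13 with Tas2r137. Without gaps, coding starts of unlike length put a pair out of step, so a low count does not show that the genes are unlike. Over the 406 pairs of the 29 receptors whose RefSeq window starts at ATG, identity ranged from 9 to 39 of 50 bases with a median of 17. The closest pairs, at 39 bases, were Tas2r104 with Tas2r105 and with Tas2r114, and their mean ratios were -0.48, 0.18 and 0.19. The receptor closest to Tas2r143 was Tas2r134, with 35 bases, and it had a mean ratio of 0.24 ± 0.37. Of the other close pairs some had unlike ratios and some had ratios near each other. Tas2r110 shared 38 bases with Tas2r123 (mean ratios -0.06 and 0.69), and Tas2r104 shared 35 with Tas2r106 (-0.48 and 0.10). Tas2r105 shared 37 bases with Tas2r106 (mean ratios 0.18 and 0.10) and 36 with Tas2r114 (0.18 and 0.19). Alike coding starts were thus found both with unlike and with like ratios. The probe sequences of the array were not used here, so which part of each gene was measured is not known.

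**Figure D2:**
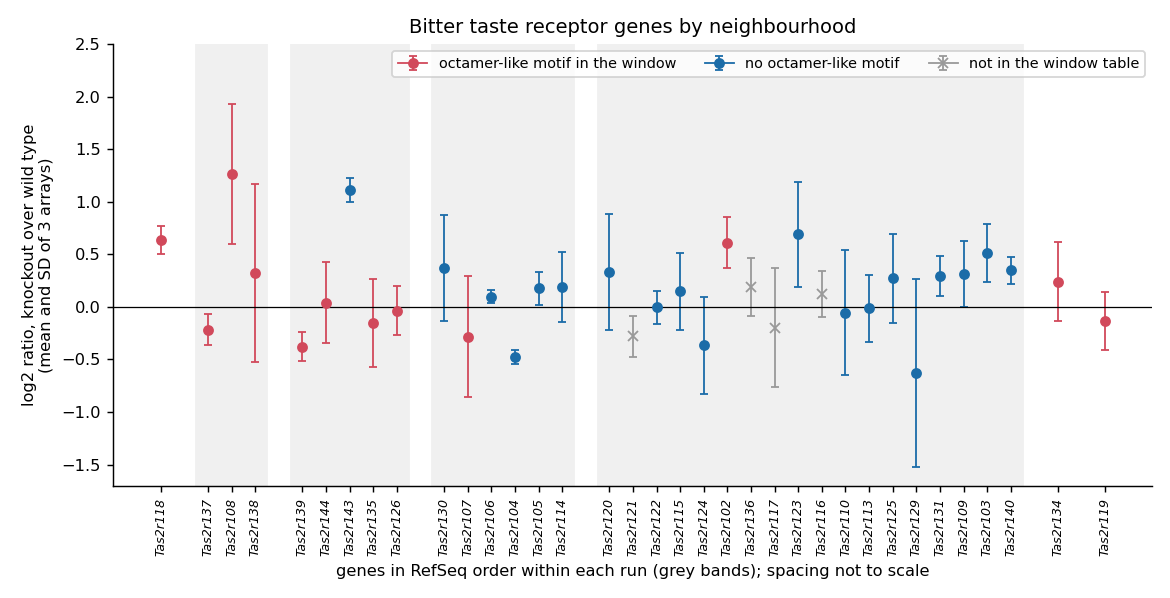
Mean log2 ratio of knockout over wild type with its SD over 3 arrays (vertical axis) for the 35 receptors, set in RefSeq gene order within each run of neighbours (grey bands). Red points mark the 12 genes with the octamer-like motif ATGCAAA in their RefSeq window and grey crosses the 4 genes without a window; high and low means stand side by side within the runs, and all single genes and all genes of the short runs but Tas2r143 are red.

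Upstream sequence was searched for a few short motifs. RefSeq windows of 250 bases before to 50 after the gene start were matched for 31 of the 35 receptors, all but Tas2r116, Tas2r117, Tas2r121 and Tas2r136. In 29 of the 31 windows the gene start is the start codon, so these windows show the bases before the coding sequence and not necessarily before the transcription start. Motifs were sought on both strands, and the share of all 32851 windows and of 917 Olfr windows is given beside each. The SOX-like motifs AACAAT and ACAAAG were in 22.6% and 29% of receptor windows, beside 31.1% and 27.5% of Olfr windows and 10.7% and 18.7% of all windows. TATAAA was in 32.3%, beside 40.7% and 13.6%, and the E-box CANNTG in 80.6%, beside 77.1% and 72.3%. For these motifs the shares of bitter and olfactory windows were near each other, and both families are poor in G and C (median 37% and 35%, beside 52.7% for all windows).

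The octamer-like motif ATGCAAA was more frequent in bitter receptor windows than in the others, which is described and not tested. Its letters are part of the octamer bound by POU-domain factors, the class to which the tuft cell regulator Pou2f3 belongs. It was in 12 of 31 receptor windows (38.7%), beside 7.5% of Olfr, 10.5% of Vmn1r, 10.6% of Vmn2r and 4.6% of all windows. All 12 sites lay before the gene start, at 116 to 242 bases with a median of 185, and 10 of them were on the strand opposite to the gene, reading TTTGCAT along the gene. In 7 of the 12 the motif, read as ATGCAAA, was followed by a further T, completing the full octamer. For a site on the opposite strand this is an A before TTTGCAT along the gene. The full octamer was in 22.6% of receptor windows, 2.7% of Olfr windows, 2.8% of Vmn1r windows, 8.2% of Vmn2r windows and 1.7% of all windows. Seen after the search, the motif was in 10 of 11 windows of the single genes and the runs of 3 and 5, and in 2 of 20 windows of the 2 longest runs.

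These sites are shown for 6 receptors of the short runs and for Tas2r118, which between them cover the range of ratios, along the gene from 5′ to 3′ with the motif in capitals and 8 bases on each side, from RefSeq on GRCm38.p6. They lie at chr6:40493439-40493461 on the plus strand (Tas2r108), chr6:23970169-23970191 on the minus strand (Tas2r118), and on the plus strand at chr6:42215164-42215186 (Tas2r144), chr6:42434334-42434356 (Tas2r126), chr6:42405379-42405401 (Tas2r135), chr6:40491039-40491061 (Tas2r137) and chr6:42140734-42140756 (Tas2r139). The order is that of the mean ratio, from 1.26 to -0.38. All sites shown but that of Tas2r139 hold the full octamer. Of the sites not shown, that of Tas2r107 holds it and those of Tas2r102, Tas2r119, Tas2r134 and Tas2r138 do not. The sites of Tas2r107 and Tas2r119 are those on the strand of the gene, so the sites shown are more alike than all 12.
Tas2r108: ttgaaagaTTTGCATctcagtaa
Tas2r118: aaggaggaTTTGCATccacaaag
Tas2r144: tttcataaTTTGCATatcaaacc
Tas2r126: gggaaataTTTGCATcatatctg
Tas2r135: tggcaataTTTGCATctgttctg
Tas2r137: gggcattaTTTGCATctcaacaa
Tas2r139: ttctgtcgTTTGCATctctatat

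Receptors with and without the motif overlapped in their ratios. The 12 with it had a median of 0.00 and means from -0.38 to 1.26, and the 19 without it a median of 0.19 and means from -0.63 to 1.11. Tas2r143, the receptor that was called, had no match in its window, which says only that these letters are not there. A match is a run of letters and was not tested as a binding site.

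**Figure D3:**
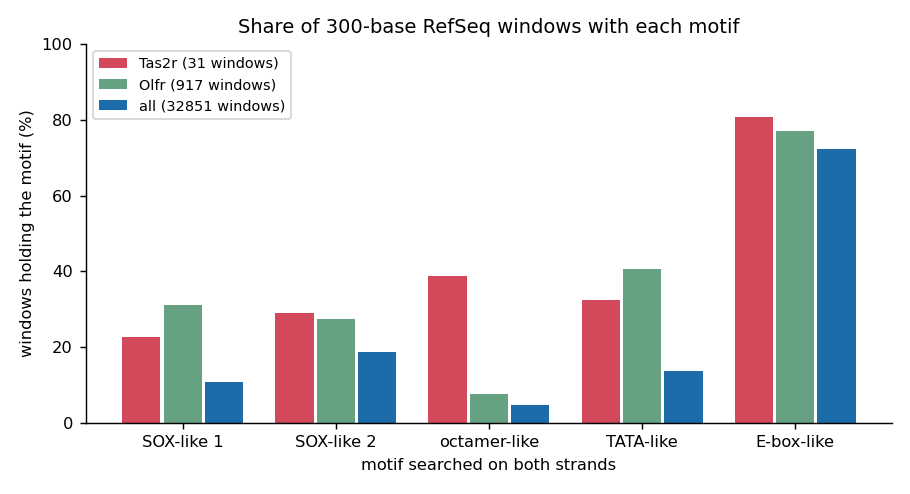
Share of RefSeq windows (vertical axis, percent) that hold each motif on either strand, for bitter receptors, olfactory receptors and all genes (horizontal axis: the motifs in the order in which the text names them, with the octamer-like one in the middle). The octamer-like motif was in 38.7% of bitter receptor windows and 7.5% of olfactory receptor windows, while the other motifs differed less between these families.

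Of 11 measured genes that carry the bitter signal inside the cell none was called. Among them 4 had a mean above 0 and 7 (63.6%) below, where 53.6% of all genes lay below 0. Their median of -0.12 was unstable, at -0.26 without array 2, -0.02 without array 3 and -0.22 over single features. Gnat3, which encodes alpha-gustducin, had -0.35, -0.65 and -0.27 (-0.42 ± 0.20, adjusted p = 0.128). Gng13, its gamma subunit partner, had -1.68, -0.21 and -1.41 (-1.10 ± 0.78, adjusted p = 0.104). Both were below 0 on every array, Gng13 mainly on arrays 1 and 3. The beta subunit genes Gnb1 and Gnb3 had 0.17 ± 0.19 and 0.34 ± 0.63.

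Further down the cascade the ratios were small or uneven. Plcb2, the phospholipase, had -0.27, -0.17 and -0.25 (-0.23 ± 0.06), and Itpr3, the calcium release channel, had -0.24 ± 0.16. The channel gene Trpm5 had -1.16, 1.21 and -0.29 (-0.08 ± 1.20), so its arrays went in opposite directions. The related channel gene Trpm4 had 0.35 ± 0.24 (adjusted p = 0.182). Rgs21, which encodes a regulator of G protein signalling in taste cells, had -0.12 ± 0.18, the ATP release channel gene Calhm1 had 0.03 ± 0.08, and Entpd2, which breaks down released ATP, had -0.53 ± 0.31 (adjusted p = 0.115).

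The sweet and umami receptor genes had means below 0, and none was called. Tas1r3, the shared subunit, had -0.13, -0.10 and -0.14 (-0.12 ± 0.02), Tas1r1 had -0.28 ± 0.25, and Tas1r2 had -0.27, -1.25 and 0.38. Of 6 genes for proteins that help bring chemosensory receptors to the cell surface, none was called either. Rtp4 had -0.68 ± 0.47 (adjusted p = 0.116), Reep1 -0.48 ± 0.13 (adjusted p = 0.0924) and Rtp3 0.44 ± 0.36 (adjusted p = 0.173).

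Tuft cell markers had an order of signs over the arrays that few receptors had, a difference described and not tested. Over 24 measured genes the medians on arrays 1, 2 and 3 were -1.04, 0.59 and -0.50, and 18 of the 24 (75%) were lower, higher and lower in that order. Of the bitter receptors 3 of 35 (8.6%) had that order of signs, beside 8.4% of all genes, and the receptor medians were 0.17, 0.12 and 0.11. The order was not particular to tuft markers. It was also that of 5 of 8 mast cell and 5 of 8 smooth muscle markers (62.5% each). In the other lists of cell markers it was that of 25% of goblet, 18.2% of absorptive enterocyte, 14.3% of Paneth and 0% of enteroendocrine genes. Dclk1 had -0.61, 0.65 and -0.14 and Pou2f3 -0.48, 1.34 and -0.36. No tuft marker was called, with Rgs13 (-2.40 ± 0.81, adjusted p = 0.0543) and Sucnr1, the succinate receptor gene (-1.31 ± 1.22, adjusted p = 0.145), the lowest.

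Enteroendocrine markers, by contrast, were lowest on array 2, with medians of -0.41, -1.29 and -0.23. Of these 17 genes 5 fell, Nts (-6.51 ± 0.32), Gcg (-5.21 ± 0.14), Cck (-1.82 ± 0.42), Pyy (-1.43 ± 0.20) and Scg2 (-1.17 ± 0.17), and none rose, where 0.222% of all genes were called lower. Nts and Gcg were called whichever array was left out and Cck only without array 2, while Pyy and Scg2 were not called with any array left out. Ghrl (0.68 ± 0.10, adjusted p = 0.0658) and Neurog3 (0.45 ± 0.20, adjusted p = 0.113) were above 0 on every array without passing limma's test. On array 2 Tas2r143 (0.98) and Tas2r108 (1.33) were above 0, as they were on arrays 1 and 3. The family's median on array 2 lay between those of the other arrays.

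Other cells of the wall also varied by array, and no member of these lists was called. Mast cell markers had medians of -3.50, 0.17 and -2.39 over 8 genes, with Fcer1a at -4.20, -0.57 and -3.50. Smooth muscle markers had -0.34, 0.35 and -0.44, goblet cell markers -0.03, 0.75 and -0.00, Paneth cell markers -0.15, 1.06 and 0.29, and absorptive enterocyte markers 0.05, 0.27 and -0.11. Members of a list went both ways. Of the goblet genes Fcgbp had 1.03 ± 0.47 and Spdef -0.72 ± 0.39, and of the smooth muscle genes Cnn1 had -0.43 ± 0.25 and Smtn 0.40 ± 0.23. The Paneth genes Defa5 and Defa21 had 0.69 ± 0.31 and -0.67 ± 3.64. Among enterocyte genes Anpep had 0.83 ± 0.15, and 6 of the 11 had a mean below 0. The part of these cells in the ratios of single receptors was not tested.

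**Figure D4:**
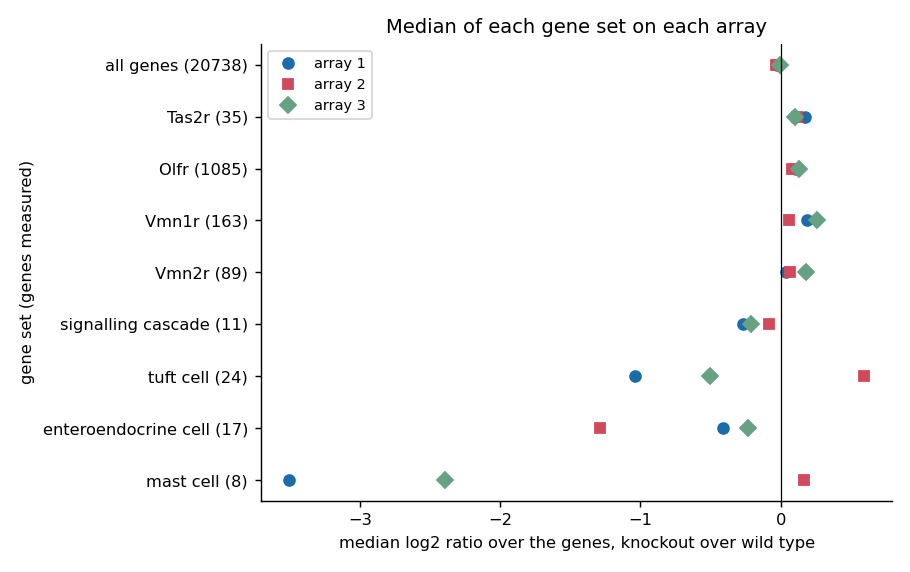
Median log2 ratio of knockout over wild type (horizontal axis) over the genes of each set on each of the 3 arrays, with the number of genes in brackets. The bitter receptor medians of 0.17, 0.12 and 0.11 lie together beside those of the Olfr and Vmn families, while tuft cell markers span -1.04 to 0.59 and mast cell markers -3.50 to 0.17.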

How the data were processed

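The deposited table holds, per the file's values, log2 ratios of both channels for 62976 features on 3 arrays with no missing value. Base 2 is assumed, and how the authors corrected, normalized or filtered the signals is not stated in the sources used here. Ratios run from -7.44 to 5.62. Array medians of 0.007, 0.003 and 0.011 show centring within arrays, and no further scaling was applied. Arrays correlated at 0.44 to 0.51 over all features. Dim features could not be filtered without intensities, and 3 arrays give limited precision.

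The platform annotation gave 31465 features 1 gene symbol and none several, and 31511 were unnamed here. Features were named through RefSeq (29050 by accession, 2061 by symbol, 349 by synonym, 5 unchanged), which left every receptor symbol as it was, and a gene's features were averaged. limma 3.58.1 (R 4.3.3; intercept, eBayes, 2 residual and 3.51 prior degrees of freedom, two-sided) tested all 20738 means against 0, with Benjamini-Hochberg adjustment over all genes and a threshold of 0.05. No array compared wild-type mice with each other, so their variation was not measured on its own, and no dye swap was among the samples. The code was tested on simulated data. Tables and figures used pandas 2.3.3, matplotlib 3.10.9, numpy 2.4.6 and Python 3.11.15.

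Receptors and lists were chosen with earlier results of these data known. The rule for naming took receptors with an adjusted or unadjusted p under 0.05, the 5 highest and 5 lowest means, the 3 largest SDs, those with more than 1 feature and 7 well-studied receptors (Tas2r105, Tas2r108, Tas2r118, Tas2r126, Tas2r135, Tas2r138 and Tas2r143). It took all measured cascade and Tas1r genes, up to 4 genes of smallest p in each other list, Dclk1, Pou2f3 and Sox4. Others given with values (Tas2r106, Tas2r110, Tas2r114, Tas2r116, Tas2r134, Tas2r137, Tas2r144, Scg2, Ghrl, Neurog3, Defa21, Eif2s3y and Xist) were chosen after their values were seen. Calhm3, Sh2d6 and Defa20 of the lists were not analysed here, nor were protein sequences. The alternatives stand in the closing section; leaving out features at exactly 0 was added after seeing the data.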

Additional observations from a re-analysis of the deposited data

How the results depend on the processing

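Tas2r143 was the 1 receptor called with array medians subtracted, with feature medians, with annotation symbols, with single features, with robust eBayes and without features at exactly 0, and 0 receptors were called after quantile normalization or with any array left out. At an unadjusted p under 0.05 limma had 9 receptors after quantile normalization (7 higher, 2 lower), and 5 higher and 1 lower without array 1, 8 and 3 without array 2, and 6 and 2 without array 3. Over all genes 68 were called, 4 to 66 with 1 array left out (10 without array 1, 66 without array 2, 4 without array 3), 325 of 62976 single features, and 170 of 20371 genes without features at exactly 0. The receptor median of 0.147 lay between 0.0885 and 0.131 with 1 array left out (0.0945 without array 2) and between 0.14 and 0.163 otherwise. Among named receptors, 3 means changed sign with 1 array left out, those of Tas2r126 (0.073 without array 1, down to -0.1595 without array 2), Tas2r138 (-0.164 without array 1, up to 0.576 without array 3) and Tas2r135 (0.037 without array 2, down to -0.378 without array 3). The test of each array's ratio against 0 already pairs knockout with wild type, and with 1 group of arrays no further block could be fitted. Signal over background is not known here.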
